A study of Mus musculus with 20 samples.

Results

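The genes described here are the potassium channel genes of AgRP neurons, taken as all rows of the count table whose symbol starts with Kcn. They number 98 of 23129 rows. By symbol, 40 code for voltage-gated pore subunits, 15 for inward rectifiers, 14 for two-pore channels and 8 for calcium-activated and related channels (Kcnma1, Kcnn, Kcnt and Kcnu1). A further 17 code for accessory subunits (Kcnab, Kcne, Kcnip, Kcnmb and Kcnrg), and 4 are RNAs named after a channel gene.

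Potassium channels let potassium leave the cell along its gradient and so pull the membrane potential away from the firing threshold. Voltage-gated channels repolarise the action potential and set its spacing, inward rectifiers and two-pore channels hold the resting potential, and calcium-activated channels carry the afterhyperpolarisation. Accessory subunits have no pore of their own and set the gating, surface number or calcium sensitivity of the channels they join. AgRP neurons make agouti-related peptide and neuropeptide Y, fire faster when food is scarce and drive feeding. Phf6, on the X chromosome, codes for a nuclear protein that binds chromatin. The comparisons address which genes differ between fed and fasted states in WT and in Phf6 cKO neurons.

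Each sample held 1000 tdTomato-positive neurons sorted from the hypothalamus, and the C57BL/6 mice were aged 25 to 30 postnatal days. Phf6 cKO mice were Phf6 flox/y; AgRP-Cre/+; Ai9/+, and WT littermates were AgRP-Cre/+; Ai9/+, so both genotypes carried Cre and the tdTomato reporter. Fasted mice had water but no food from 5 pm of the day before collection, and fed mice were not deprived. The groups were cKO fasted, cKO fed, WT fasted and WT fed, with 5 libraries each. Deletion depends on Cre driven by AgRP, and the labels do not say whether each sample came from 1 mouse, so the p-values measure the spread between these samples, which may be technical. Levels are given as CPM, counts scaled to a common library size by trimmed mean of M values (TMM), and a member rose or fell where the edgeR quasi-likelihood test gave a Benjamini-Hochberg adjusted p below 0.05.

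Total counts ran from 8542250 to 9282818 in cKO fasted, 10604977 to 13573524 in cKO fed, 8494499 to 10000278 in WT fasted and 11500753 to 13060922 in WT fed libraries. Phf6, the floxed gene, averaged 61.2 CPM in cKO fasted and 128 CPM in WT fasted libraries. It averaged 70.7 CPM in cKO fed and 276 CPM in WT fed libraries. Its counts cover the whole gene, and the deleted part is not named in the labels. Agrp averaged 11310 CPM in cKO fasted, 5066 CPM in cKO fed, 14929 CPM in WT fasted and 4554 CPM in WT fed libraries. Fasted replicates 1 and 2 stood apart from fasted replicates 3, 4 and 5: deviations from the group mean correlated at -0.353 between these sets in cKO and at -0.441 in WT, against -0.248 and -0.251 in the fed groups. The labels name no batch, and values with each fasted set alone are given where they differ. Summed microglial markers reached at most 1.32 CPM and oligodendrocyte precursor markers at most 1.52 CPM in any library. The 8 astrocyte markers summed to 129 to 180 CPM in cKO fasted against 188 to 226 CPM in cKO fed, and to 168 to 184 CPM in WT fasted against 191 to 289 CPM in WT fed libraries. The 6 oligodendrocyte markers summed to 49.4 to 65.5 CPM in cKO fasted against 82.6 to 102 CPM in cKO fed, and to 49.1 to 73.5 CPM in WT fasted against 90.5 to 103 CPM in WT fed libraries. Neither the astrocyte nor the oligodendrocyte sum overlapped between fasted and fed libraries in either genotype. Only 4 of the 8 astrocyte and 4 of the 6 oligodendrocyte markers passed the low-count filter, and Aqp4 had no count in cKO fed libraries. The sums therefore rest on part of each list and do not show that all its markers moved together. The 6 tanycyte and ependymal markers summed to 26.8 to 51.3 CPM in cKO fasted against 33.0 to 46.5 CPM in cKO fed, and to 30.3 to 43.7 CPM in WT fasted against 43.8 to 57.6 CPM in WT fed libraries. The 5 endothelial markers summed to 2.0 to 17.8 CPM in cKO fasted against 1.92 to 5.82 CPM in cKO fed, and to 4.39 to 8.5 CPM in WT fasted against 0.069 to 2.89 CPM in WT fed libraries. The 2 Pomc neuron markers summed to 439 to 1097 CPM in cKO fasted libraries and to at most 470 CPM in any other library. Whether these cells contribute to the results was not tested.

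Of the 98 members, 66 passed the filter on low counts, and 63 of these code for channel or accessory subunits. They were 30 voltage-gated, 9 inward-rectifier, 8 two-pore, 5 calcium-activated and 11 accessory genes. Kcna7, Kcne3 and Kcnk7 had no count in any library. Kcnj10, the main inward rectifier of astrocytes, had 34 counts over all 20 libraries and its partner Kcnj16 had 18, so neither was tested. Kcnn2, a small-conductance calcium-activated channel, had 124 counts, Kcna1 had 132 and Kcnq1 had 33 over all 20 libraries. The channel and accessory genes together took 0.102 to 0.118% of the counts in cKO fasted, 0.118 to 0.127% in cKO fed, 0.0996 to 0.114% in WT fasted and 0.11 to 0.114% in WT fed libraries.

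Levels of different genes were set side by side only as CPM per kilobase of exon. Kcnk2 (TREK-1), a two-pore leak channel opened by stretch and lipids, had the highest level of all members in both fed groups. It stood at 31.3 ± 0.713 CPM per kilobase in cKO fed and 31.4 ± 1.13 CPM per kilobase in WT fed libraries (SD, n = 5 each). In both fasted groups Kcnk1 (TWIK-1), another two-pore leak channel, was highest, with 43.2 ± 8.07 CPM per kilobase in cKO fasted and 38.9 ± 5.04 CPM per kilobase in WT fasted libraries. The next level in WT fed libraries was that of Kcnip4 at 17.7 ± 1.75, whose libraries overlapped those of Kcnk1 at 15.2 ± 1.57 CPM per kilobase. Kcnip1 followed at 14.6 ± 0.748 CPM per kilobase, and its libraries overlapped those of Kcnk1 too. In WT fasted libraries Kcnip4 at 25.3 ± 2.26 and Kcnk2 at 24.5 ± 2.22 CPM per kilobase overlapped each other below Kcnk1. Kcna5, a delayed rectifier, was the highest voltage-gated gene in fed libraries, at 11.7 ± 1.16 CPM per kilobase in cKO and 10.5 ± 1.27 in WT. This order depends on the length used: per kilobase of the longest transcript, Kcnc2 stood above Kcna5, at 12.4 against 11.7 CPM per kilobase in cKO fed and 11.3 against 10.5 in WT fed libraries, and Kcnip1 stood above Kcnk1. Of the bases in Kcnk2 exons, 12.2% lie opposite another gene, and the counting is not stated to use strand, so its reads cannot be fully told from that gene's.

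**Figure D1:**
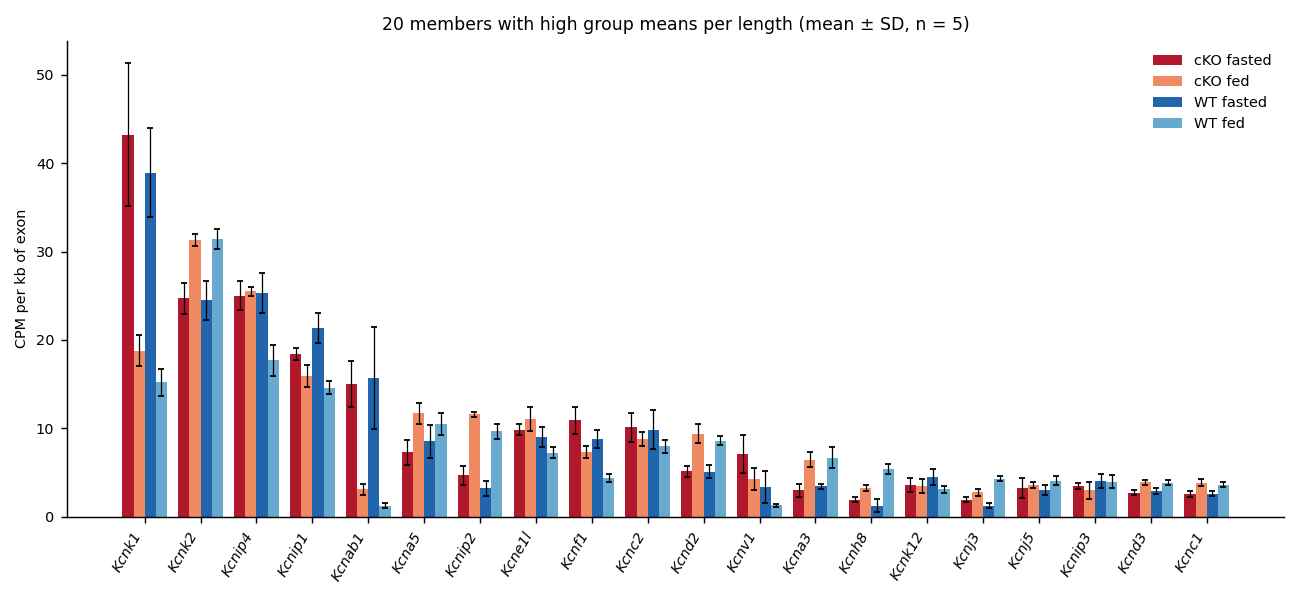
Mean CPM per kilobase of exon with SD bars (n = 5) for 20 members with high group means, in cKO fasted, cKO fed, WT fasted and WT fed libraries. Kcnk1 stands highest in both fasted groups and Kcnk2 in both fed groups, at 31.3 and 31.4 CPM per kilobase.

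In cKO neurons fasting changed 30 of the 66 tested members, of which 9 rose and 21 fell. These are 13.6 and 31.8% of the members, where 26.0% of all 13237 tested genes rose and 27.0% fell. The median log2 fold change was -0.22 over the members, beside -0.03 over all tested genes. In WT neurons fasting changed 42 members, of which 17 rose and 25 fell, or 25.8 and 37.9%, where 29.6% of all tested genes rose and 31.3% fell. The members' median there was -0.28, beside -0.03 over all tested genes. Of the 30 voltage-gated genes, 2 rose and 14 fell in cKO, and 5 rose and 13 fell in WT. Of the 9 inward rectifiers, 0 rose and 4 fell in cKO, and 1 rose and 4 fell in WT. Of the 8 two-pore genes, 1 rose and 1 fell in cKO, and 2 rose and 2 fell in WT. Of the 5 calcium-activated and related genes, 0 rose and 1 fell in cKO, and 1 rose and 2 fell in WT. Of the 11 accessory genes, 4 rose and 1 fell in cKO, and 5 rose and 4 fell in WT.

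**Figure D2:**
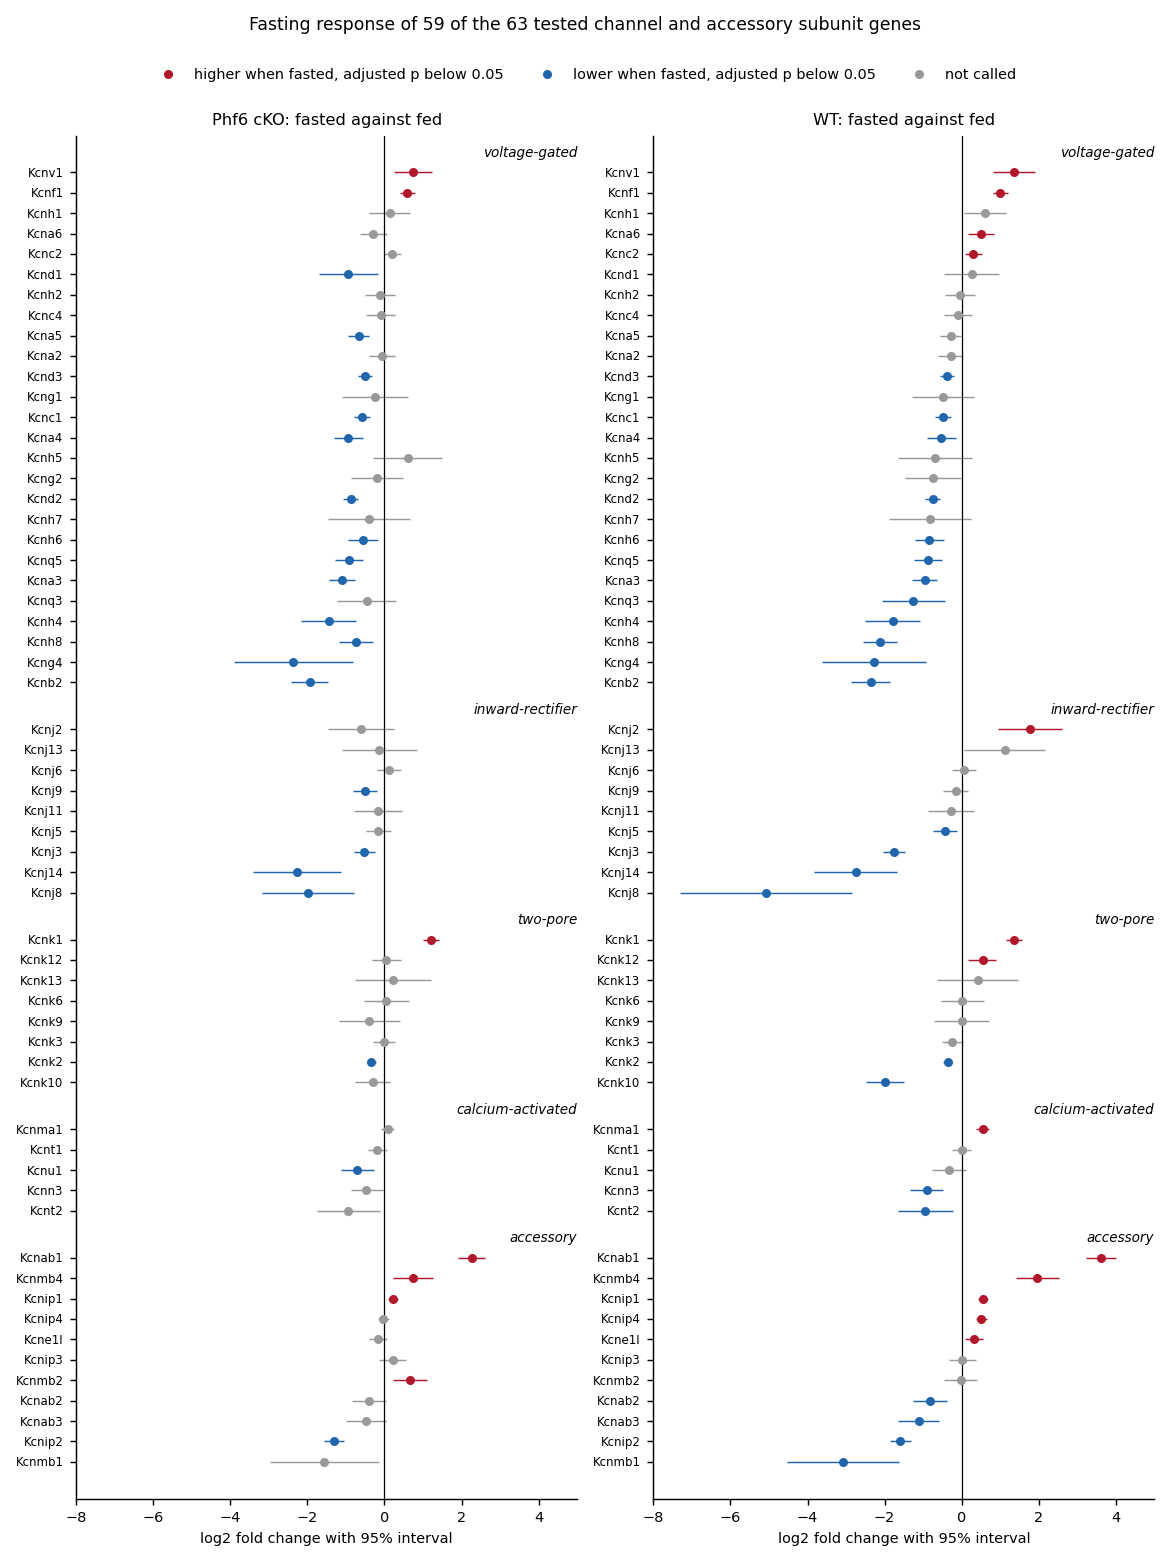
Log2 fold change, fasted against fed, with its 95% interval for 59 of the 63 tested channel and accessory genes by class, in cKO (left) and WT (right); red and blue points passed the test as higher and lower. Most called voltage-gated genes lie left of 0 in both genotypes, and Kcnab1 lies farthest right in both.

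Summed over each class, the inward rectifiers were lower in fasted libraries, and the accessory genes were higher, in cKO through Kcnab1. Accessory genes summed to 381 to 434 CPM in cKO fasted against 285 to 326 CPM in cKO fed libraries. They summed to 370 to 475 CPM in WT fasted against 224 to 260 CPM in WT fed libraries. Neither pair of ranges overlapped. Without Kcnab1, left out after its values were seen, the other accessory genes summed to 263 to 273 CPM in cKO fasted against 262 to 294 CPM in cKO fed libraries, which overlapped. In WT they summed to 261 to 304 CPM fasted against 214 to 247 CPM fed, with no overlap. Inward rectifiers summed to 50.3 to 63.6 CPM in cKO fasted against 67.2 to 75.2 CPM in cKO fed libraries, and to 43.7 to 59.1 CPM in WT fasted against 68.5 to 79.0 CPM in WT fed libraries. Without Kcnj3, left out in the same way, they summed to 38.8 to 55.8 CPM in cKO fasted against 51.8 to 60.7 CPM in cKO fed and to 35.0 to 51.9 CPM in WT fasted against 46.7 to 54.2 CPM in WT fed libraries, which overlapped in both genotypes. Voltage-gated genes summed to 366 to 430 CPM in cKO fasted against 436 to 471 CPM in cKO fed libraries, while in WT the ranges of 344 to 410 CPM fasted and 389 to 430 CPM fed overlapped. Two-pore genes overlapped in both genotypes, at 217 to 282 CPM in cKO fasted against 223 to 241 CPM in cKO fed and 216 to 265 CPM in WT fasted against 211 to 232 CPM in WT fed libraries. Calcium-activated genes overlapped as well, at 71.0 to 78.5 CPM in cKO fasted against 73.9 to 85.1 CPM in cKO fed and 70.4 to 87.4 CPM in WT fasted against 65.7 to 77.9 CPM in WT fed libraries. These sums carry no test, since the members were chosen with results known, and in RNA pooled from sorted cells, fewer expressing cells and less RNA per cell cannot be told apart.

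**Figure D3:**
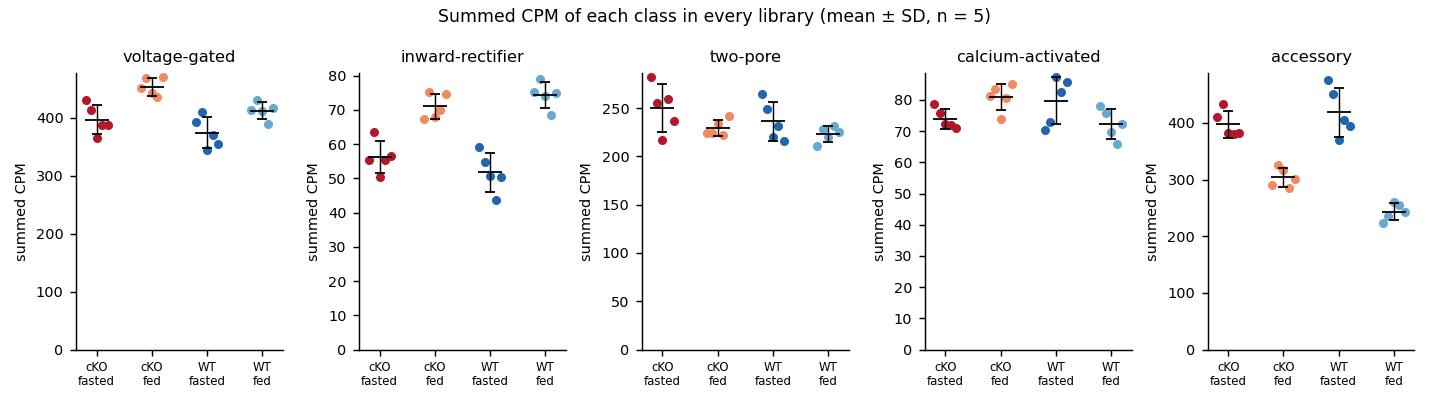
Summed CPM of the members of each class in every library, with mean and SD (n = 5), for cKO fasted, cKO fed, WT fasted and WT fed. The accessory sum is above its fed range in all fasted libraries of both genotypes, in cKO only with Kcnab1 included, and the inward-rectifier sum is below its fed range, with Kcnj3 included.

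The largest rise of any member was that of Kcnab1, which codes for a Kvβ1 subunit that binds Kv1 channels and can give them fast inactivation. The gene lies on chromosome 3 at 65109384 to 65378223, plus strand (GRCm38). It stood at 138, 164, 117, 118 and 109 CPM in cKO fasted against 22.8, 32.1, 33.4, 23.1 and 22.4 CPM in cKO fed libraries. It stood at 187, 190, 86.1, 102 and 111 CPM in WT fasted against 10.0, 12.7, 13.6, 10.1 and 8.44 CPM in WT fed libraries. All fasted libraries lay above all fed ones in both genotypes, and WT fasted replicates 1 and 2 were highest of all. The rise was 4.81-fold in cKO (log2 2.27 ± 0.18 SE, adjusted p = 4.06e-11) and 12.3-fold in WT (3.62 ± 0.20, adjusted p = 8.58e-15). With fasted replicates 3 to 5 alone the log2 change was 2.1 in cKO and 3.18 in WT, and with replicates 1 and 2 alone 2.49 and 4.08. The other Kvβ genes fell in WT. Kcnab2 averaged 3.32 CPM in cKO fasted and 4.38 CPM in cKO fed libraries, where it was not called. It fell 1.77-fold in WT, to 2.39 CPM fasted against 4.24 CPM fed, though not with GC and length offsets (adjusted p = 0.0667). Kcnab3 fell 2.18-fold in WT, to 1.71 CPM fasted against 3.75 CPM fed, and was not called in cKO, where it averaged 2.65 CPM fasted and 3.68 CPM fed.

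Of the 5 tested genes of the Kv1 family, the channels that Kvβ subunits join, 3 fell and 0 rose in cKO, and 2 fell and 1 rose in WT. Of all tested genes, 27.0% fell and 26.0% rose in cKO, and 31.3% fell and 29.6% rose in WT. So few genes cannot set the family apart from these shares. Kcna3 (Kv1.3) stood at 6.00, 5.19, 3.82, 7.60 and 6.09 CPM in cKO fasted against 14.9, 12.5, 12.1, 10.1 and 12 CPM in cKO fed libraries. It stood at 6.66, 5.94, 7.16, 6.64 and 6.29 CPM in WT fasted against 10.1, 15.6, 13.8, 13.1 and 10.8 CPM in WT fed libraries. The groups did not overlap in either genotype, and Kcna3 fell 2.14-fold in cKO (log2 -1.10 ± 0.17, adjusted p = 3.09e-06) and 1.94-fold in WT (-0.96 ± 0.16, adjusted p = 1.3e-05). Kcna4 (Kv1.4), an A-type channel, fell 1.92-fold in cKO and 1.45-fold in WT. Its WT call was lost without fed WT replicate 1 (adjusted p = 0.0576), without fasted WT replicate 2 (0.0646) and with fasted replicates 3 to 5 alone (0.0591). Kcna5 fell 1.59-fold in cKO, to 20.9 CPM fasted against 33.4 CPM fed, and averaged 24.5 CPM fasted and 29.9 CPM fed in WT (adjusted p = 0.0699). Kcna2 was not called in either genotype. Kcna6 (Kv1.6) rose 1.42-fold in WT and was not called in cKO, with its values given beside the genotype comparison.

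Of the A-type channels of the Kv4 family, Kcnd2 and Kcnd3 fell with fasting in both genotypes, while of their KChIP partners 1 fell in both genotypes and 2 rose in WT, 1 of them also in cKO. Of all tested genes, 27.0% fell and 26.0% rose in cKO, and 31.3% fell and 29.6% rose in WT. Kv4 channels carry a subthreshold A-type current that delays firing, and KChIPs, coded by Kcnip genes, bind them and raise their surface expression. Kcnd2 (Kv4.2) stood at 23.0, 24.9, 25.8, 27.4 and 30.9 CPM in cKO fasted against 54.9, 45.8, 50.1, 40.9 and 51.0 CPM in cKO fed libraries. It stood at 29.5, 30.4, 21.5, 25.6 and 24.8 CPM in WT fasted against 45.6, 46.7, 46.4, 40.7 and 42.3 CPM in WT fed libraries. No fasted library reached a fed one, and Kcnd2 fell 1.84-fold in cKO (log2 -0.88 ± 0.10, adjusted p = 2.69e-08) and 1.69-fold in WT (-0.75 ± 0.10, adjusted p = 2.25e-07). Kcnd3 (Kv4.3) fell 1.42-fold in cKO, to 26.3 CPM fasted against 37.4 CPM fed, and 1.3-fold in WT, to 28.4 CPM fasted against 36.9 CPM fed. Kcnd1 averaged at most 2.78 CPM in any group. It fell 1.92-fold in cKO, a call lost in 6 of the fits that left out 1 library (adjusted p up to 0.125), with GC and length offsets (0.124) and with fasted replicates 1 and 2 alone (0.356). In WT it averaged 2.68 CPM fasted and 2.24 CPM fed and was not called.

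Kcnip2 (KChIP2) fell in both genotypes. It stood at 16.3, 14.3, 22.5, 13.8 and 14.4 CPM in cKO fasted against 41.0, 40.4, 39.5, 41.9 and 39.6 CPM in cKO fed libraries. It stood at 7.95, 11.4, 10.2, 16.2 and 10.2 CPM in WT fasted against 32.5, 29.0, 35.9, 34.7 and 36.2 CPM in WT fed libraries. The groups were far apart in both genotypes, and the fall was 2.49-fold in cKO (log2 -1.31 ± 0.14, adjusted p = 4.69e-09) and 3.01-fold in WT (-1.59 ± 0.14, adjusted p = 1.35e-10). Kcnip1 (KChIP1) moved the other way. It stood at 112, 108, 115, 118 and 118 CPM in cKO fasted against 92.2, 108, 104, 90.0 and 100 CPM in cKO fed libraries. It stood at 123, 120, 145, 138 and 133 CPM in WT fasted against 86.6, 87.5, 89.8, 98.3 and 91.7 CPM in WT fed libraries. The fasted groups lay above the fed ones, by a wide gap in WT and a narrow one in cKO. Kcnip1 rose 1.16-fold in cKO (log2 0.21 ± 0.07, adjusted p = 0.00775), a call lost with fasted replicates 1 and 2 alone (0.0696), and 1.46-fold in WT (0.54 ± 0.07, adjusted p = 3.90e-08). Kcnip4 (KChIP4), forms of which slow Kv4 inactivation, rose 1.43-fold in WT and was not called in cKO, as described with the genotype comparisons. Kcnip3, which codes for the calcium sensor also known as DREAM, was not called in either genotype, with a 95% interval of -0.15 to 0.57 in cKO and of -0.33 to 0.37 in WT.

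The Kv2 and Kv3 families, which repolarise the action potential, gave mixed results. Kcnb2 (Kv2.2) stood at 1.5, 1.90, 1.39, 1.93 and 2.63 CPM in cKO fasted against 8.46, 9.58, 6.45, 5.37 and 6.17 CPM in cKO fed libraries. It stood at 1.17, 1.42, 1.74, 1.24 and 0.552 CPM in WT fasted against 6.21, 7.39, 6.00, 6.08 and 5.86 CPM in WT fed libraries. Fasted and fed libraries did not overlap, and Kcnb2 fell 3.84-fold in cKO (log2 -1.94 ± 0.24, adjusted p = 1.27e-07) and 5.13-fold in WT (-2.36 ± 0.26, adjusted p = 6.72e-09). Kcnc1 (Kv3.1) fell 1.5-fold in cKO, to 24.3 CPM fasted against 36.3 CPM fed, and 1.39-fold in WT, to 24.7 CPM fasted against 34.4 CPM fed. With GC and length offsets Kcnc1 was called in neither genotype (adjusted p = 0.0996 in cKO and 0.21 in WT). Kcnc2 (Kv3.2) averaged 72.1 CPM in cKO fasted and 62.6 CPM in cKO fed libraries (adjusted p = 0.143). It rose 1.24-fold in WT, to 70.3 CPM fasted against 56.8 CPM fed. That WT call was lost without fed WT replicate 4 (adjusted p = 0.0779), without fasted WT replicate 2 (0.159) and with fasted replicates 3 to 5 alone (log2 0.09, 0.365).

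Silent subunits of the Kv5 and Kv8 groups, which make no channel alone and change Kv2 channels they join, rose. Kcnf1 (Kv5.1) stood at 57.6, 62.1, 46.0, 48.1 and 47.5 CPM in cKO fasted against 36.7, 34.6, 35.7, 38.0 and 29.6 CPM in cKO fed libraries. It stood at 49.7, 43.4, 39.3, 36.9 and 40.4 CPM in WT fasted against 20.1, 19.7, 19.3, 21.3 and 24.3 CPM in WT fed libraries. Fasted and fed libraries were apart in both genotypes, and Kcnf1 rose 1.5-fold in cKO (log2 0.58 ± 0.10, adjusted p = 1.65e-05) and 2.0-fold in WT (1.00 ± 0.10, adjusted p = 2.32e-09). Kcnv1 (Kv8.1) stood at 42.5, 43.9, 24.7, 30 and 22.8 CPM in cKO fasted against 12, 27.5, 20.7, 21.2 and 16.2 CPM in cKO fed libraries. It stood at 23.1, 25.8, 7.16, 9.68 and 12.5 CPM in WT fasted against 5.94, 4.88, 6.07, 7.01 and 6.59 CPM in WT fed libraries. In both genotypes fasted replicates 1 and 2 were its highest libraries, and fasted and fed groups overlapped in cKO but not in WT. Kcnv1 rose 1.67-fold in cKO (log2 0.74 ± 0.25, adjusted p = 0.0134), a call lost without fasted cKO replicate 2 (0.051) and with fasted replicates 3 to 5 alone (log2 0.40, 0.0556). It rose 2.55-fold in WT (1.35 ± 0.28, adjusted p = 0.000125), with a log2 change of 0.68 from fasted replicates 3 to 5 alone and 1.99 from replicates 1 and 2 alone. Kcng4 (Kv6.4), another silent subunit, reached at most 2.08 CPM in any library. It had 6 counts over the cKO fasted libraries against 51 over the cKO fed ones, a ratio of 0.186 (95% interval 0.0652 to 0.433, counting error only), and 10 over the WT fasted against 79 over the WT fed ones, a ratio of 0.197 (0.091 to 0.382). Both passed the test as lower (adjusted p = 0.0123 in cKO and 0.00569 in WT), calls lost with fasted replicates 3 to 5 alone in cKO (adjusted p = 0.0754) and with replicates 1 and 2 alone in WT (0.127). Only fed libraries brought Kcng4 past the low-count filter, so the direction of these calls is not independent of that filter.

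Among the ether-à-go-go relatives, Kcnh8, Kcnh4 and Kcnh6 fell in both genotypes and the other tested Kcnh genes were not called. The shares of all tested genes that fell were 27.0% in cKO and 31.3% in WT, and so few genes cannot set the family apart from them. Kcnh8 (ELK1) stood at 7.88, 9.11, 7.42, 10.8 and 9.07 CPM in cKO fasted against 14.7, 13.4, 16.3, 13.1 and 16.3 CPM in cKO fed libraries. It stood at 9.70, 8.14, 5.75, 2.48 and 2.43 CPM in WT fasted against 21.4, 25.5, 28.6, 25.2 and 22.6 CPM in WT fed libraries. The fasted libraries were lower in each genotype, with the lowest values in WT fasted replicates 4 and 5. Kcnh8 fell 1.67-fold in cKO (log2 -0.74 ± 0.22, adjusted p = 0.00612) and 4.36-fold in WT (-2.12 ± 0.23, adjusted p = 5.18e-09). In WT the log2 change was -2.78 with fasted replicates 3 to 5 alone and -1.48 with replicates 1 and 2 alone. Kcnh4 fell 2.72-fold in cKO and 3.44-fold in WT with at most 3.04 CPM in any library. Kcnh4 passed the low-count filter through the fed groups, where it was high, so the direction of these calls is not independent of that filter. Kcnh6 fell 1.47-fold in cKO and 1.79-fold in WT, and its cKO call was lost without fed cKO replicate 5 (adjusted p = 0.0854), with GC and length offsets (0.323) and with fasted replicates 1 and 2 alone (0.192). Kcnh1, Kcnh2 (ERG1), Kcnh5 and Kcnh7 were not called in either genotype.

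Kv7 (Kcnq) channels carry the M-current, a slow brake on repeated firing. Kcnq5 fell 1.89-fold in cKO, to 5.83 CPM fasted against 11 CPM fed, and 1.83-fold in WT, to 5.32 CPM fasted against 9.73 CPM fed. Kcnq3 stood at 3.5 CPM or less in every library and fell 2.40-fold in WT, a call lost with fasted replicates 1 and 2 alone (adjusted p = 0.071).

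Inward rectifiers of the Kir3 (GIRK) family open when inhibitory G protein-coupled receptors are active and lower excitability. Kcnj3 (GIRK1) is the subunit that joins GIRK2 to GIRK4. It stood at 11.1, 7.84, 11.5, 9.65 and 10.4 CPM in cKO fasted against 15.4, 14.5, 15.0, 11.1 and 16.8 CPM in cKO fed libraries. It stood at 7.25, 5.04, 5.53, 8.67 and 6.73 CPM in WT fasted against 22.2, 24.8, 21.8, 21.8 and 21.3 CPM in WT fed libraries. WT groups did not overlap, while in cKO the lowest fed library lay within the fasted range. Kcnj3 fell 1.44-fold in cKO (log2 -0.53 ± 0.14, adjusted p = 0.00263) and 3.36-fold in WT (-1.75 ± 0.15, adjusted p = 3.76e-11). Of its exon bases 31.1% lie opposite another gene, and the counting is not stated to use strand, so its reads cannot be fully told from that gene's. Kcnj6 (GIRK2) averaged 14.2 CPM in cKO fasted, 13.1 CPM in cKO fed, 14 CPM in WT fasted and 13.4 CPM in WT fed libraries, with 95% intervals for the log2 change of -0.2 to 0.42 in cKO and -0.25 to 0.37 in WT. Kcnj9 (GIRK3) fell 1.42-fold in cKO, to 10.4 CPM fasted against 14.9 CPM fed, which was lost with GC and length offsets (adjusted p = 0.362) and with fasted replicates 3 to 5 alone (0.0507). In WT it averaged 9.19 CPM fasted and 10.3 CPM fed and was not called. Kcnj5 (GIRK4) fell 1.35-fold in WT, to 14.2 CPM fasted against 19.2 CPM fed, a call lost without fed WT replicate 2 (0.0604), without fasted WT replicate 3 (0.0622) or 5 (0.0611), with GC and length offsets (0.0677) and with fasted replicates 1 and 2 alone (0.378).

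The other inward rectifiers were low. Kcnj14 (Kir2.4) stood at 0.125, 0.632, 1.04, 0.227 and 0 CPM in cKO fasted against 1.31, 3.48, 1.33, 2.22 and 1.73 CPM in cKO fed libraries. It stood at 0.584, 0.517, 1.08, 0 and 0.110 CPM in WT fasted against 2.69, 4.59, 2.64, 2.26 and 3.62 CPM in WT fed libraries. Fasted libraries were below fed ones throughout, and Kcnj14 fell 4.85-fold in cKO (log2 -2.28 ± 0.58, adjusted p = 0.00157) and 6.73-fold in WT (-2.75 ± 0.55, adjusted p = 9.63e-05). Kcnj14 passed the low-count filter through the fed groups, where it was high, so the direction of these calls is not independent of that filter. Kcnj2 (Kir2.1), a strong rectifier that holds the resting potential, rose 3.42-fold in WT and was not called in cKO (adjusted p = 0.245). Kcnj11, the pore of the ATP-sensitive channel that closes when energy is plentiful, averaged 1.68 CPM in cKO fasted, 1.90 CPM in cKO fed, 1.86 CPM in WT fasted and 2.26 CPM in WT fed libraries and was not called. Kcnj8, the ATP-sensitive channel pore of mural cells, had 1 count in the 5 WT fasted libraries together against 77 counts in the 5 WT fed libraries, a ratio of 0.0202 (95% interval 0.000506 to 0.116, counting error only). Kcnj8 passed the low-count filter through the other groups, in cKO more through fed than fasted libraries, and not through WT fasted ones. The direction of its falls in WT and in cKO is therefore not independent of that filter. In cKO it stood at 0, 0, 1.39, 2.16 and 0.478 CPM fasted against 0.785, 2.27, 4.62, 3.24 and 5.41 CPM fed. Fasted replicates 1 and 2 had no count, and replicates 3 and 4 lay within the fed range. It fell 3.95-fold (log2 -1.98 ± 0.61, adjusted p = 0.0072), with a log2 change of -1.27 from fasted replicates 3 to 5 alone (adjusted p = 0.0414). The 4 mural markers summed to 1.82 to 2.51 CPM in cKO fasted, 2.73 to 3.84 CPM in cKO fed, 0.676 to 3.97 CPM in WT fasted and 1.01 to 3.21 CPM in WT fed libraries, and their part in the Kcnj8 result was not tested.

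Two-pore channels carry the leak current that sets the resting potential. Kcnk1 stood at 127, 94.9, 80.9, 96.6 and 84.2 CPM in cKO fasted against 39.6, 39.7, 42.0, 40.1 and 49.1 CPM in cKO fed libraries. It stood at 100, 95.2, 75.6, 75.3 and 88.0 CPM in WT fasted against 28.6, 36.0, 34.6, 37.8 and 32.9 CPM in WT fed libraries. Every fasted library exceeded every fed one, and Kcnk1 rose 2.29-fold in cKO (log2 1.2 ± 0.11, adjusted p = 2.85e-10) and 2.56-fold in WT (1.35 ± 0.11, adjusted p = 1.60e-11). Kcnk2, the most abundant leak channel of fed neurons, stood at 120, 127, 109, 131 and 125 CPM in cKO fasted against 153, 154, 161, 151 and 155 CPM in cKO fed libraries. It stood at 133, 121, 118, 129 and 105 CPM in WT fasted against 150, 159, 149, 158 and 161 CPM in WT fed libraries. The groups were apart in both genotypes, though the fall was small, at 1.27-fold in cKO (log2 -0.34 ± 0.06, adjusted p = 4.16e-05) and 1.28-fold in WT (-0.36 ± 0.06, adjusted p = 1.45e-05). Kcnk10 (TREK-2), a relative of Kcnk2, was not called in cKO (adjusted p = 0.267) and fell 3.98-fold in WT (-1.99 ± 0.25, adjusted p = 1.12e-07). Kcnk12, a silent two-pore subunit, rose 1.45-fold in WT, a call lost without fasted WT replicate 1 (adjusted p = 0.06) and with fasted replicates 3 to 5 alone (0.134). Kcnk3 (TASK-1), an acid-sensitive leak channel, averaged 13.4 CPM in cKO fasted, 13.6 CPM in cKO fed, 11.9 CPM in WT fasted and 14.1 CPM in WT fed libraries and was not called.

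Of the large-conductance calcium-activated (BK) channel, the pore gene and a neuronal β subunit gene rose in WT. Kcnma1, the BK pore, stood at 48.9, 47.4, 49.2, 42.0 and 41.3 CPM in cKO fasted against 43.0, 42.6, 40.6, 44.7 and 45.3 CPM in cKO fed libraries. It stood at 45.1, 44.2, 53.4, 50.2 and 62.1 CPM in WT fasted against 35.8, 38.1, 34.2, 34.5 and 33.3 CPM in WT fed libraries. The cKO groups overlapped and the WT groups did not. The log2 change of Kcnma1 was 0.08 ± 0.09 in cKO (adjusted p = 0.446), and it rose 1.45-fold in WT (0.54 ± 0.09, adjusted p = 5.07e-06). Kcnmb4, the β4 subunit that slows BK gating in neurons, stood at 7.75, 8.09, 2.90, 6.13 and 7.04 CPM in cKO fasted against 4.10, 5.04, 3.5, 1.79 and 4.44 CPM in cKO fed libraries. It stood at 10.2, 9.69, 6.18, 6.76 and 4.63 CPM in WT fasted against 1.66, 1.94, 2.14, 1.79 and 2.01 CPM in WT fed libraries. WT groups were apart, and 1 fasted cKO library lay within the fed range. Kcnmb4 rose 1.68-fold in cKO (0.75 ± 0.27, adjusted p = 0.0212) and 3.90-fold in WT (1.96 ± 0.28, adjusted p = 8.90e-07). The cKO call was lost without fed cKO replicate 4 (0.0678), without fasted cKO replicate 1 (0.0528) or 2 (0.0617) and with fasted replicates 3 to 5 alone (0.154).

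The antisense gene Kcnmb4os2 overlaps Kcnmb4, and 31.5% of Kcnmb4 exon bases lie opposite its antisense genes. Kcnmb4os2 rose 3.38-fold in cKO, to 3.52 CPM fasted against 1.04 CPM fed, and 7.86-fold in WT, to 3.94 CPM fasted against 0.490 CPM fed. It passed the low-count filter through the fasted groups, where it was high, so the direction of these calls is not independent of that filter. The counting is not stated to use strand, and without strand, reads from the overlap of a gene and its antisense partner cannot be told apart. The rises of Kcnmb4 and Kcnmb4os2 therefore cannot be shown to be separate measurements. Kcnmb2, an inactivating β subunit, rose 1.57-fold in cKO, to 6.83 CPM fasted against 4.34 CPM fed, and averaged 7.04 CPM fasted and 7.14 CPM fed in WT. The cKO call was lost without fed cKO replicate 2 (adjusted p = 0.054), without fasted cKO replicate 1 (0.0812), with GC and length offsets (0.1) and with fasted replicates 3 to 5 alone (0.231). Kcnmb1, the β subunit of smooth muscle, reached at most 1.37 CPM in any library. It had 8 counts over the cKO fasted libraries against 38 over the cKO fed ones and was not called there (adjusted p = 0.0726). It had 5 counts over the WT fasted libraries against 71 over the WT fed ones, a ratio of 0.11 (95% interval 0.0346 to 0.268, counting error only), and passed the test as lower (adjusted p = 0.000763). Only fed libraries brought Kcnmb1 past the low-count filter, so the direction of this call is not independent of that filter. Kcnn3 (SK3), a small-conductance channel, averaged 5.89 CPM in cKO fasted and 8.15 CPM in cKO fed libraries (adjusted p = 0.0668). It fell 1.87-fold in WT, to 4.09 CPM fasted against 7.65 CPM fed. The sodium-activated channel Kcnt1 was not called in either genotype. Kcnt2 fell 1.92-fold in WT, a call lost in 4 of the fits that left out 1 library (adjusted p up to 0.0923) and with fasted replicates 3 to 5 alone (0.238). Kcnu1 fell 1.64-fold in cKO, a call lost with fasted replicates 3 to 5 alone (0.0674).

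Kcnq1ot1, a long noncoding RNA transcribed from inside Kcnq1, rose in both genotypes. It stood at 269, 278, 201, 168 and 176 CPM in cKO fasted against 148, 160, 130, 150 and 152 CPM in cKO fed libraries. It stood at 355, 394, 208, 137 and 146 CPM in WT fasted against 139, 138, 130, 120 and 131 CPM in WT fed libraries. Fasted replicates 1 and 2 were highest in both genotypes, and WT fasted replicate 4 fell within the WT fed range. It rose 1.48-fold in cKO (log2 0.56 ± 0.20, adjusted p = 0.0173), a call lost without fasted cKO replicate 1 (0.0537) or 2 (0.0625), and 1.88-fold in WT (0.91 ± 0.20, adjusted p = 0.000224). With fasted replicates 3 to 5 alone the change was 0.30 in cKO and 0.32 in WT, and with replicates 1 and 2 alone 0.89 and 1.49. Kcnd3os rose 2.70-fold in WT with at most 3.23 CPM in any library, and 12.2% of its exon bases lie opposite Kcnd3, which fell.

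**Figure D4:**
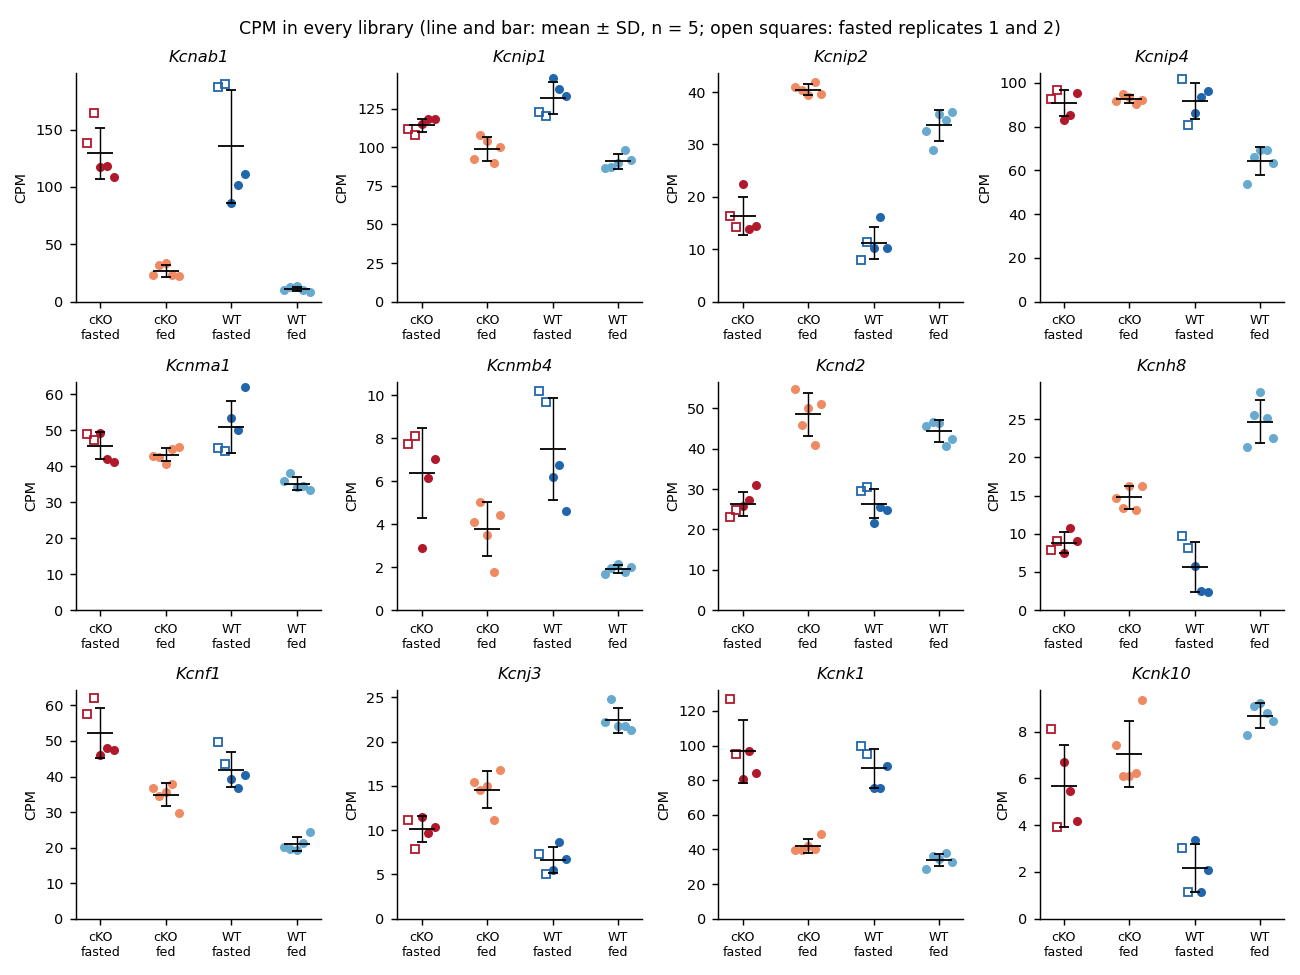
CPM of 12 members in every library, with mean and SD (n = 5), for cKO fasted, cKO fed, WT fasted and WT fed; open squares are fasted replicates 1 and 2. Kcnab1 averages 129 CPM in cKO fasted, 26.8 in cKO fed, 135 in WT fasted and 11 in WT fed libraries, and Kcnj3 and Kcnh8 are lower in cKO fed than in WT fed libraries.

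RefSeq promoter windows (GRCm38.p6, 250 bases before to 50 after a start) were held for 69 member genes of the 5 classes, in 94 windows, of which 63 windows belong to 45 tested genes. Motifs of factors known to act in fasting or in active neurons were searched on both strands. The full CRE, TGACGTCA, was in 1.79% of 32851 windows of all genes and in 0 of the 63. TGACGT, its first part, was in 7.51% of all windows and in 4 of the 63, or 6.35%. TGANTCA, the AP-1 motif, was in 7.81% of all windows and in 3 of the 63, or 4.76%. GTAAACA, a forkhead motif, was in 3.65% of all windows and in 0 of the 63. The shares among the members were near or below those of all windows. The 3 windows of Kcnab1 held none of these letters, nor did those of Kcnk1, Kcnj3 and Kcnip2. The stretches printed are the windows with a match in members that changed in WT fasting, with 40 bases on either side and none past the start, 5′ to 3′ on the strand of the gene. Capitals mark the motif or its reverse complement. Kcna6 and Kcnip4 rose, and Kcnab2 and Kcnk2 fell, so a match was present on both sides. A match is a string of letters and not a shown binding site.
Kcna6, TGACGT, chr6:126740675-126740721, minus strand: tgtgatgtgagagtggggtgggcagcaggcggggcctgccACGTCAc
Kcnip4, TGANTCA, chr5:49285695-49285781, minus strand: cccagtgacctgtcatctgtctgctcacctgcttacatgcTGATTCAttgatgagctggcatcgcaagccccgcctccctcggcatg
Kcnab2, TGACGT, chr4:152477680-152477765, minus strand: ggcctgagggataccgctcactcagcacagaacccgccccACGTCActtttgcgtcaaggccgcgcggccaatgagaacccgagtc
Kcnk2, TGANTCA, chr1:189344272-189344358, minus strand: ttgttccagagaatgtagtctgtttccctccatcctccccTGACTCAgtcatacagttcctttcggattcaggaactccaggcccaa

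Genes for proteins that join or tune potassium channels without bearing a Kcn symbol, and for the related Hcn channels, were read from a list of 28, of which 24 were tested. In cKO 5 rose and 10 fell with fasting, with a median log2 change of -0.21, and in WT 6 rose and 13 fell, with a median of -0.39. These are 20.8 and 41.7% in cKO, where 26.0% of all tested genes rose and 27.0% fell, and 25% and 54.2% in WT, where 29.6% of all tested genes rose and 31.3% fell. Calm2, a calmodulin gene, whose protein is the calcium sensor of SK and Kv7 channels, rose 1.46-fold in cKO, to 5266 CPM fasted against 3613 CPM fed, and 1.59-fold in WT, to 5571 CPM fasted against 3496 CPM fed. Dpp10, a transmembrane partner of Kv4 channels, rose 1.4-fold in cKO, to 126 CPM fasted against 89.9 CPM fed, and 1.58-fold in WT, to 137 CPM fasted against 86.6 CPM fed. Amigo1, a partner of Kv2 channels, fell 1.46-fold in cKO, to 15.7 CPM fasted against 23.1 CPM fed, and 2.09-fold in WT, to 12.5 CPM fasted against 26.3 CPM fed. Snx27, which sorts GIRK channels in endosomes, fell 1.32-fold in cKO, to 53.1 CPM fasted against 70.0 CPM fed, and 1.75-fold in WT, to 38.7 CPM fasted against 67.9 CPM fed. Of 12 genes of the sodium pump and the cation chloride cotransporters, which keep the potassium and chloride gradients, 11 were tested. In cKO 1 rose and 6 fell, with a median of -0.37, and in WT 2 rose and 6 fell, with a median of -0.31. These are 9.09 and 54.5% in cKO and 18.2 and 54.5% in WT, beside the same shares of all tested genes. Atp1b3, a sodium pump β subunit, rose 1.52-fold in cKO, to 402 CPM fasted against 264 CPM fed, and 1.98-fold in WT, to 432 CPM fasted against 218 CPM fed. Slc12a7, a cotransporter, fell 2.15-fold in cKO, to 3.16 CPM fasted against 6.83 CPM fed, and 3.51-fold in WT, to 2.70 CPM fasted against 9.50 CPM fed.

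When mice were fed, Phf6 cKO neurons differed from WT neurons in 12 of the 66 members, of which 8 were higher and 4 lower. These are 12.1 and 6.06% of the tested members, where 5.87% of all tested genes were higher and 3.81% lower. With GC and length offsets 7 members were higher and 4 lower, while over all genes the split moved to 696 higher and 698 lower, against 777 and 504 without them. Of the 8 higher members, 4 were accessory genes, namely Kcnab1, Kcnip4, Kcne1l and Kcnmb4. These are 36.4% of the 11 tested accessory genes. The comparison shares the WT fed libraries with WT fasting, so the changes of a gene in the 2 comparisons are not independent. Kcnab1 was 2.44-fold higher (log2 1.29 ± 0.20, adjusted p = 5.80e-05), at 26.8 CPM in cKO fed against 11 CPM in WT fed libraries, with no overlap of the values given above. Kcnip4 stood at 91.8, 95.1, 93.7, 90.5 and 92.2 CPM in cKO fed against 53.8, 66.2, 69.2, 69.2 and 63.4 CPM in WT fed libraries. All cKO libraries were higher, by 1.44-fold (0.53 ± 0.07, adjusted p = 9.72e-06). Kcne1l, an X-linked gene of the MinK-related family, was 1.53-fold higher (0.61 ± 0.12, adjusted p = 0.00066), at 17.2 CPM in cKO fed against 11.2 CPM in WT fed libraries. Kcnv1 was 3.21-fold higher (1.68 ± 0.27, adjusted p = 7.66e-05), at 19.6 CPM in cKO fed against 6.10 CPM in WT fed libraries. Kcnf1 was 1.67-fold higher (0.74 ± 0.10, adjusted p = 1.03e-05), at 34.9 CPM in cKO fed against 20.9 CPM in WT fed libraries.

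Kcnj3 was 1.54-fold lower in fed cKO neurons (log2 -0.62 ± 0.13, adjusted p = 0.00247), at 14.5 CPM in cKO fed against 22.4 CPM in WT fed libraries, and no libraries overlapped. Kcnh8 was 1.67-fold lower (-0.74 ± 0.20, adjusted p = 0.0192), at 14.7 CPM in cKO fed against 24.6 CPM in WT fed libraries, a call lost without WT fed replicate 3 (0.0588) and without cKO fed replicate 2 (0.053) or 4 (0.0517). Kcnh6 was 1.58-fold lower, at 5.56 CPM in cKO fed against 8.80 CPM in WT fed libraries, a call lost without cKO fed replicate 1 (0.0561) or 3 (0.0518) and without WT fed replicate 5 (0.0662). The calls of Kcnj9 (1.45-fold higher), Kcnma1 (1.23-fold higher), Kcnmb4 (1.98-fold higher) and Kcnmb2 (1.65-fold lower) were each lost in 5 to 7 of the fits that left out 1 library, with adjusted p up to 0.106. Kcnk1 averaged 42.1 CPM in cKO fed and 34.0 CPM in WT fed libraries, which did not overlap but missed the threshold (adjusted p = 0.0677).

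In fasted mice cKO neurons differed from WT neurons in 10 members, of which 7 were higher and 3 lower. These are 10.6 and 4.55% of the tested members, where 11.5% of all tested genes were higher and 8.84% lower. With fasted replicates 1 and 2 alone 5 members were called, and with replicates 3 to 5 alone 12. Over all genes, 1682 of 13896 tested were called with replicates 1 and 2 alone and 3640 of 13581 with replicates 3 to 5 alone. Kcnk10 was 2.60-fold higher (log2 1.38 ± 0.27, adjusted p = 0.000548), at 8.13, 3.92, 6.72, 5.45 and 4.18 CPM in cKO fasted against 3.04, 1.16, 3.36, 1.13 and 2.1 CPM in WT fasted libraries, which did not overlap. Kcnj3 was 1.52-fold higher (0.60 ± 0.15, adjusted p = 0.00661), at 10.1 CPM in cKO fasted against 6.64 CPM in WT fasted libraries, a call lost with fasted replicates 1 and 2 alone (0.0815). Kcnv1 was 2.1-fold higher (1.07 ± 0.26, adjusted p = 0.00373), at 32.8 CPM in cKO fasted against 15.7 CPM in WT fasted libraries. Kcnip2 was 1.46-fold higher (0.54 ± 0.15, adjusted p = 0.0104), at 16.3 CPM in cKO fasted against 11.2 CPM in WT fasted libraries, a call lost without cKO fasted replicate 3 (0.0512). Kcnip1 was 1.15-fold lower (-0.21 ± 0.07, adjusted p = 0.0239), at 114 CPM in cKO fasted against 132 CPM in WT fasted libraries. That call was lost in 4 of the fits that left out 1 library (adjusted p up to 0.088) and with fasted replicates 1 and 2 alone (0.376). Kcnj8 had 35 counts over the cKO fasted libraries against 1 count over the WT fasted libraries, a ratio of 36.5 (95% interval 6.13 to 1480, counting error only), and it had no count in fasted replicates 1 and 2 of either genotype. The calls of Kcnf1 (1.25-fold higher), Kcng2 (2.17-fold higher), Kcnj2 (2.53-fold lower) and Kcna6 (1.44-fold lower) were each lost in 5 to 7 of the fits that left out 1 library, with adjusted p up to 0.138. Kcnab1, far apart between genotypes when fed, averaged 129 CPM in cKO fasted and 135 CPM in WT fasted libraries (log2 -0.06 ± 0.17, adjusted p = 0.831).

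The difference between the genotypes' fasting changes was tested as an interaction, the change in cKO minus the change in WT. It passed for 12 members, of which 3 had a positive and 9 a negative value, or 4.55 and 13.6% of those tested, where 8.87% of all tested genes had a positive and 8.44% a negative call. In all 12 the change was smaller in size in cKO than in WT, as it was in 72.5% of the 2291 genes with an interaction call over the whole table. The sign was the same in both genotypes for 8 of the 12 and for 1435 of the 2291 genes. Kcnip4, Kcnj2, Kcna6 and Kcne1l rose in WT but had a lower mean fasted than fed in cKO, without a call there. Of the 12, 4 are voltage-gated or BK pore genes (Kcnh8, Kcna6, Kcnf1 and Kcnma1), 2 are inward rectifiers (Kcnj3 and Kcnj2), 1 is a two-pore channel (Kcnk10) and 5 are accessory genes (Kcnip4, Kcnab1, Kcnip1, Kcnmb4 and Kcne1l). With fasted replicates 1 and 2 alone 7 members were called, where Kcnh8 (adjusted p = 0.0528), Kcnj2 (0.0686), Kcnma1 (0.435), Kcnip1 (0.104), Kcna6 (0.0928), Kcnf1 (0.134) and Kcne1l (0.282) were lost, and 13 with replicates 3 to 5 alone. Over all genes, 2210 of 13896 tested were called with replicates 1 and 2 alone and 3603 of 13581 with replicates 3 to 5 alone.

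Kcnj3, Kcnip4, Kcnab1 and Kcnk10 passed the interaction test in the fits with either fasted set alone and in every fit that left out 1 library. Kcnj3 had the smallest p of the members, with a change of -0.53 in cKO against -1.75 in WT and a difference of 1.22 ± 0.20 (adjusted p = 0.000121). For Kcnip4 the change was -0.03 in cKO against 0.51 in WT, a difference of -0.54 ± 0.10 (adjusted p = 0.000521). It stood at 92.5, 96.6, 83.2, 85.5 and 95.4 CPM in cKO fasted and at 102, 80.9, 86.2, 93.7 and 96.1 CPM in WT fasted libraries, so the fasted groups overlapped while the fed groups given above did not overlap. For Kcnab1 the difference was -1.35 ± 0.26 (adjusted p = 0.000657), or -1.08 with fasted replicates 3 to 5 alone and -1.59 with replicates 1 and 2 alone. Kcnk10 stood at 8.13, 3.92, 6.72, 5.45 and 4.18 CPM in cKO fasted against 7.42, 6.10, 6.10, 6.22 and 9.36 CPM in cKO fed libraries, which overlapped. It stood at 3.04, 1.16, 3.36, 1.13 and 2.1 CPM in WT fasted against 7.87, 9.12, 9.21, 8.80 and 8.44 CPM in WT fed libraries, which did not. Its difference was 1.68 ± 0.34 (adjusted p = 0.00108).

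Kcnh8 differed by 1.39 ± 0.32 (adjusted p = 0.00291), with 2.09 from fasted replicates 3 to 5 alone and 0.68 from replicates 1 and 2 alone. Kcnj2 stood at 2.75, 1.14, 0.579, 1.02 and 0.836 CPM in cKO fasted against 1.05, 2.20, 1.33, 2.30 and 2.70 CPM in cKO fed libraries. It stood at 4.21, 2.84, 1.95, 1.69 and 5.30 CPM in WT fasted against 1.52, 0.790, 0.714, 0.389 and 1.21 CPM in WT fed libraries. The WT groups did not overlap and the cKO groups did, and the difference was -2.38 ± 0.61 (adjusted p = 0.00662). Kcnma1 differed by -0.46 ± 0.12 (adjusted p = 0.00987), with -0.62 from fasted replicates 3 to 5 alone and -0.17 from replicates 1 and 2 alone. Kcnip1 differed by -0.33 ± 0.09 (adjusted p = 0.0123). Kcna6 (Kv1.6) averaged 7.42 CPM in cKO fasted against 9.07 CPM in cKO fed, and 10.7 CPM in WT fasted against 7.52 CPM in WT fed libraries, a difference of -0.80 ± 0.25 (adjusted p = 0.0263). That call was lost without cKO fed replicate 2 (0.0573) or 5 (0.0618) and without WT fasted replicate 4 (0.0642), and 39.6% of its exon bases lie opposite another gene. Kcnmb4 differed by -1.22 ± 0.39 (adjusted p = 0.03), lost in 4 of the fits that left out 1 library (adjusted p up to 0.0652). Kcnf1 (-0.42 ± 0.14, adjusted p = 0.0428) and Kcne1l (-0.48 ± 0.17, adjusted p = 0.0454) were lost in 14 and 15 of these fits.

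**Figure D5:**
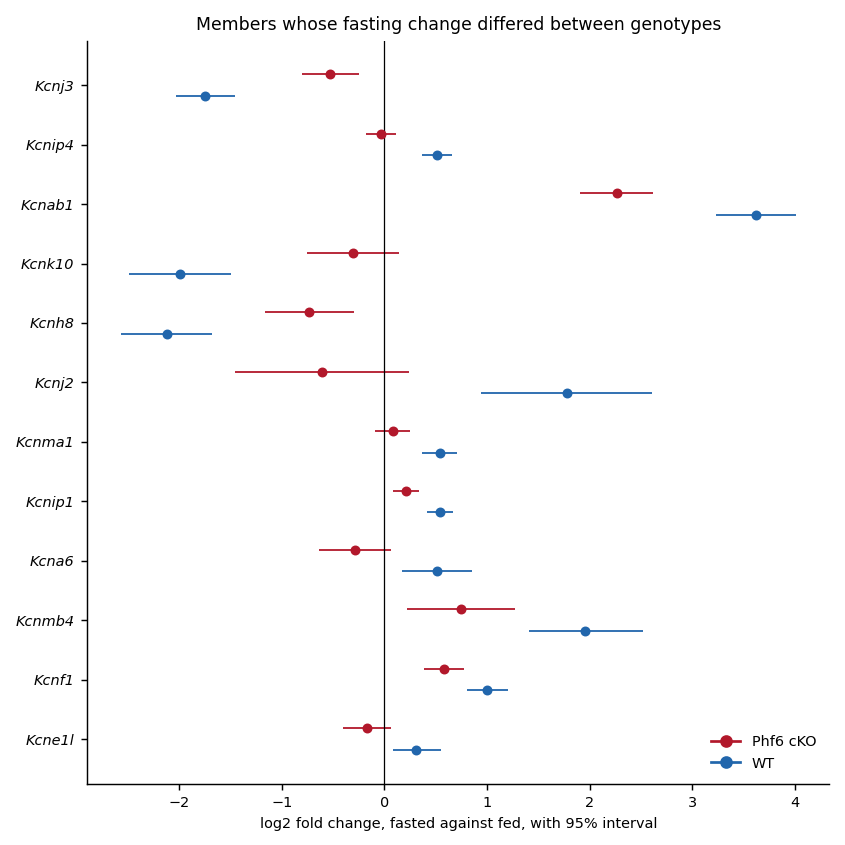
Log2 fold change, fasted against fed, with its 95% interval in cKO (red, above) and WT (blue, below) for the 12 members whose change differed between genotypes, ordered by p. Each cKO point lies nearer to 0 than its WT point, and Kcnj3 is at -0.53 in cKO and -1.75 in WT.

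The fasting changes with no call of a genotype difference included Kcnk1, Kcnip2, Kcnd2 and Kcnb2. Kcnk1 differed by -0.16 ± 0.15 (adjusted p = 0.51), Kcnip2 by 0.28 ± 0.20 (0.356), Kcnd2 by -0.12 ± 0.14 (0.598) and Kcnb2 by 0.42 ± 0.36 (0.456). A p above the threshold does not show that the changes were equal. Among the partner genes 4 had a positive and 1 a negative interaction call of 24 tested, and among the gradient genes 0 and 2 of 11. These are 16.7 and 4.17% of the partner genes and 0.0 and 18.2% of the gradient genes, where 8.87% of all tested genes had a positive and 8.44% a negative call. Snx27 changed by -0.40 in cKO against -0.81 in WT, a difference of 0.41 ± 0.11 (adjusted p = 0.0102). Gnb5, the β subunit that acts with RGS proteins on GIRK signalling, differed by 0.48 ± 0.13 (adjusted p = 0.0125), and Atp1b3 by -0.38 ± 0.08 (adjusted p = 0.00109).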

How the data were processed

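RNA from 1000 sorted AgRP neurons per sample was amplified with SMART-seq v4 and sequenced, per the labels' protocols, in 20 libraries of 4 groups. The authors deposited raw gene counts. Per the submitters' processing notes, the tools were Trimmomatic 0.36, HISAT2 2.1.0, featureCounts of Subread 1.6.2 and DESeq2 1.20.0, with GRCm38. Of the annotation and the strand setting, nothing is stated in the labels. Amplification without molecular identifiers means that counting intervals cover counting error only.

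Counts were fitted with edgeR 4.0.16 (limma 3.58.1, R 4.3.3): filterByExpr with a minimum count of 10 and a minimum total of 15, TMM scaling, 4 group means, the quasi-likelihood test and Benjamini-Hochberg adjustment over all 13237 tested genes at 0.05. A floor of 3 counts was 0.207 to 0.387 CPM, depending on the library. Low members such as Kcng4, Kcnmb1, Kcnj8, Kcnj14, Kcnh4 and Kcnmb4os2 passed the filter through the groups where they were high. Their calls against groups where they were low are not independent of the filter. Alternatives were DESeq2 1.42.0 size factors and test, other low-count filters, GC and length offsets, a replicate block, leaving out each library and keeping either set of fasted replicates. The fit was also run on simulated counts in which few genes were changed, in 1 comparison at a time. In the fasting comparisons most genes were called, so that run cannot vouch for the scaling or the calls here.

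The members and lists were chosen with earlier results of these data known. Any member could be named, full statistics going to at most 10 rising and 10 falling members with the smallest p per comparison, and listed partner genes to the 4 smallest p. The planned search of channel proteins for selectivity filter letters was not run. Some members are not reported here one by one, though they entered the fits, the counts and the class sums.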

Additional observations from a re-analysis of the deposited data

Results flagged for a closer look

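In 264 groups of 5 libraries, the CPM of 18 had a highest or lowest library whose gap to the next exceeded Dixon's critical value of 0.71 of the range; chance flags about 1 in 20 groups. In cKO fasted libraries the high ones were Kcna6 in replicate 5 (9.43 CPM), Kcne1l in replicate 4 (16.9), Kcnh1 in replicate 5 (6.45), Kcnip2 in replicate 3 (22.5), Kcnj13 in replicate 2 (2.53) and Kcnj2 in replicate 1 (2.75). In cKO fed libraries they were Kcnk1 in replicate 5 (49.1 CPM) and Kcnt2 in replicate 2 (3.69). In WT fasted libraries they were Kcnj8 in replicate 5 (0.11 CPM, 1 count) and Kcnk6 in replicate 1 (3.27). In WT fed libraries they were Kcnab3 in replicate 3 (4.92 CPM), Kcnb2 in replicate 2 (7.39), Kcnh1 in replicate 2 (5.03), Kcnip3 in replicate 3 (18.8), Kcnj13 in replicate 5 (2.09), Kcnj3 in replicate 2 (24.8) and Kcnk3 in replicate 4 (16.9), and Kcna6 was low in replicate 4 (6.85).

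The fasting change differed between genotypes, by the interaction test, for 12 members. On the log2 scale, the cKO change minus the WT change was 1.22 for Kcnj3, 1.68 for Kcnk10 and 1.39 for Kcnh8. It was -0.54 for Kcnip4, -1.35 for Kcnab1, -2.38 for Kcnj2, -0.46 for Kcnma1, -0.33 for Kcnip1, -0.8 for Kcna6, -1.22 for Kcnmb4, -0.42 for Kcnf1 and -0.48 for Kcne1l.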

How the results depend on the processing

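With fasted replicates 1 and 2 alone, 5 members differed between fasted cKO and WT neurons, against 10 with all libraries, and 7 passed the interaction test, against 12. Over all 13896 genes tested in that fit, 1682 differed between fasted genotypes and 2210 passed the interaction test. In that fit Kcnj8 was at 0 (adjusted p = 1) between fasted genotypes, as it had no count in those libraries. Leaving out 1 library gave 27 to 32 calls in cKO fasting, 39 to 43 in WT fasting, 8 to 10 in fed cKO against WT, 6 to 10 in fasted cKO against WT (6 without cKO fasted replicate 2) and 8 to 12 for the interaction. Over all genes these fits gave, in the same order, 6518 to 6960, 7723 to 7937, 905 to 1022, 2030 to 3193 and 1941 to 2700 calls. With the replicate block the counts were 30, 45, 12, 10 and 11, and over all genes 7069, 8090, 1318, 2785 and 2347. The replicate numbers gave little sign of pairing: 2 of 30 pairs correlated above 0.1, the median was 0.00186, and in 8 of 30 pairs the own number correlated best. Between WT fasted and cKO fasted libraries, pairs of the same number correlated at 0.0221 to 0.131. Such correlations cannot show that the samples were unpaired. The cause of these changes was not tested. At the depth reached, groups that both lie under the floor of 3 counts per library cannot be compared.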
